A study of Homo sapiens with 12 samples.

Results

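The genes described here are 10 effectors of the tumor suppressor p53 that act outside cell cycle arrest: TRIAP1, PERP, AEN, SPATA18, RNF144B, TP53I11, PHLDA3, PLXNB2, ZMAT3 and RPS27L. They were taken by name as widely described direct p53 targets, with earlier results of these data known. All 10 were found among the 36482 rows of the count table once rows were summed by gene symbol, each under 1 Ensembl identifier. The study asked whether small molecules restore transcription by mutant p53. TOV-112D cells, an ovarian cancer line whose own p53 carries the R175H substitution, were treated for 3 h with the vehicle DMSO (2 libraries), UCI-1001 (2 libraries) or its analog UCI-1014 (2 libraries). As a reference for p53-dependent genes, the osteosarcoma line Saos-2 was used as its parental p53-null form (3 libraries) and as a derived line that carries wild-type p53 on a doxycycline-inducible lentiviral construct, p53-WT (3 libraries), with 16 h of induction given by the labels for both. UCI-1014 differs from UCI-1001 in that a methoxy group takes the place of the nitro group. How much UCI-1014 the cells received is not given in the sources used here, so the compounds are set side by side at a matched time only. The sources do not say whether libraries of a group came from separate cultures, so each p-value measures the spread between these libraries, which may be technical.

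p53 is a transcription factor that binds as a tetramer to a response element made of a pair of palindromic half-sites, and raises transcription of the genes nearby. Its best known output is cell cycle arrest, but many direct targets act elsewhere: at mitochondria and in apoptosis, on growth signalling, at the cell surface, and on RNA and ribosomes. The R175H substitution lies in the DNA-binding domain, unfolds it and abolishes sequence-specific binding. The genes described here are spread over those other outputs.

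To show where the members could carry a response element, the letters of the p53 consensus (the p53 response element: 2 adjacent half-sites without a spacer) were searched within 2500 bases on each side of the start of the canonical transcript in hg38. Both strands were read in 1 pass because the motif is its own reverse complement. A match had both 4-letter half-site cores intact and at most 3 of the 12 flanking letters off. By this count 5 of the 10 members (50%) had a match, against 2518 of the 20007 windows of protein-coding genes (12.6%). The matches are printed because the genes that carry them range from 0 counts (SPATA18) to a 10.8-fold rise (RPS27L) in p53-WT, and capitals mark the cores.
ZMAT3, intron 1, chr3:179070188-179070207, minus strand, 0 flanking letters off: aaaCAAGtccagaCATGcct
SPATA18, intron 1, chr4:52051957-52051976, plus strand, 2 off: ggaCATGtgtgtaCATGccc
AEN, upstream, chr15:88621306-88621325, plus strand, 2 off: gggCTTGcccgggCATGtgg
RPS27L, intron 1, chr15:63157235-63157254, minus strand, 3 off: gggCATGtagtgaCTTGccc
RPS27L, upstream, chr15:63157527-63157546, minus strand, 3 off: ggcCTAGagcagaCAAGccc
TRIAP1, intron 1, chr12:120445248-120445267, minus strand, 3 off: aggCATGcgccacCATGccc

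The windows of PHLDA3, PERP, TP53I11, RNF144B and PLXNB2 held no such run of letters. A match is a description of the sequence, not a bound site. The RefSeq promoter table (GRCh38.p14, 300 bases around a gene's start as RefSeq places it) listed 9 of the 10 members. For PLXNB2 that window (chr22:50301620-50301919) lies inside the gene's span given here, away from its outermost start. The promoters of AEN and RPS27L held a match, as did 150 of all 35116 promoters in the table (0.427%). The AEN promoter is printed with its match in capitals, to show how close to the start the element lies.
AEN, chr15:88621090-88621389, plus strand: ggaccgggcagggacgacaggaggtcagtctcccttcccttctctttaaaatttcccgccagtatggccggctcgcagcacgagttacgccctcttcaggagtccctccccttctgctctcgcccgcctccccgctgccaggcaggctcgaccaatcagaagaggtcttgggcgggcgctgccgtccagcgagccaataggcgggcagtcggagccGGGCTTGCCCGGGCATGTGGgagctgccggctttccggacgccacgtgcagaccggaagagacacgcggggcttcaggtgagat

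Values are CPM, counts scaled to a common library size after TMM within each cell line, unless TPM is named. The lines were scaled separately, so their CPM are not on 1 common scale. Tests between the lines used 1 fit of all 12 libraries. Deposited counts summed to 17762027 to 24629558 per library, so that 3 counts correspond to 0.132 to 0.179 CPM. Replicate libraries of TOV-112D gave chi-square values of 2.08 to 3.73 per degree of freedom. In Saos-2, the library numbered 1 of each line stood apart from the other two of its line (23 to 38.4, against 3.07 to 3.79 between those), and the log2 fold changes of p53-WT are therefore also given without both of them. The markers did not wholly match the lines' labels: SP7, an osteoblast transcription factor, had 0 counts in all 6 Saos-2 libraries and ALPL at most 12, whereas KRT8 and KRT18, epithelial keratins, averaged 179 and 556 TPM in p53-null. RUNX2, of the same osteoblast list, averaged 3.11 TPM there. In TOV-112D, KRT18 had 0 counts and PAX8, a marker of Mullerian epithelium, at most 1. EPCAM, CDH1 and WT1 of the epithelial and ovarian lists averaged 2.81, 1.2 and 1.11 TPM with DMSO. In p53-null, WT1 and PAX8 averaged more than with DMSO, at 7.74 and 2.4 TPM. EPCAM and CDH1 averaged less there, at 0 and 0.0349 TPM. The part of these features in the results was not tested.

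Of the 8 members that could be tested in Saos-2, the 7 with at least 108 counts in every p53-null library all rose with p53-WT. Their rise was 2.24-fold for AEN to 33.4-fold for RNF144B. TP53I11, almost absent without p53, was called higher too. It passed the filter on low counts only through p53-WT, so its call was fixed by the filter. Of all genes tested, 33.5% were higher with p53-WT. In TOV-112D none of the 7 members tested rose with either compound, beside 9.39% of all genes with UCI-1001 and 23.7% with UCI-1014. RNF144B did not pass the filter on low counts there. Without the filter it was called higher with UCI-1014, on 18 counts against 2 with DMSO. TRIAP1, TP53I11, AEN and PLXNB2 were lower with UCI-1014 by 12.8% to 36.6%, beside 23.4% of all genes. TRIAP1 was lower with UCI-1001 too, beside 6.36% of all genes, in a call that was lost in 7 of 14 alternative settings. SPATA18 and PHLDA3 were at or near 0 counts in every Saos-2 library, with or without p53-WT. In bulk libraries, fewer expressing cells and less RNA per cell cannot be told apart.

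**Figure D1:**
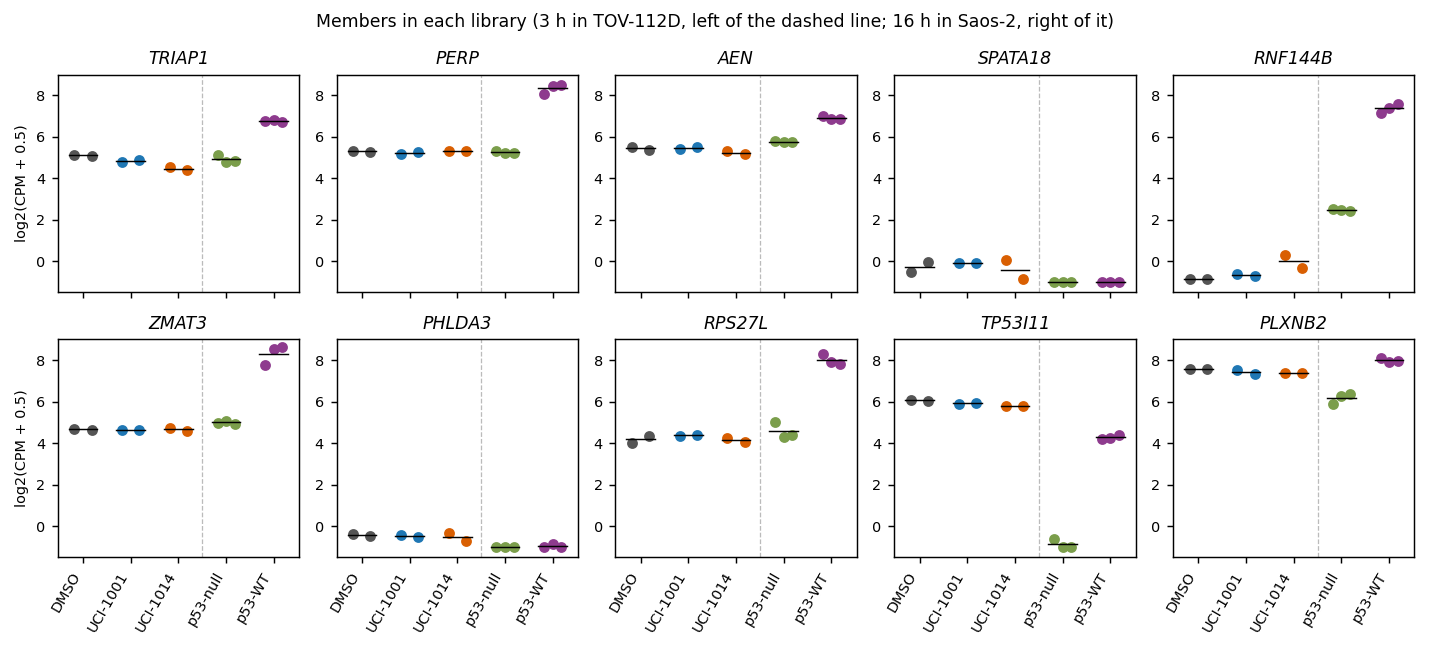
Level of each member in each of the 12 libraries as log2(CPM + 0.5), 1 point a library, with a line at the group mean; groups are on the horizontal axis and the dashed line separates TOV-112D from Saos-2. The p53-WT points of 8 members lie above every p53-null point, and the points of SPATA18 and PHLDA3 lie at the bottom of the axis in Saos-2.

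Of the members that act at mitochondria and in cell death, TRIAP1 (ENSG00000170855, chr12:120443964-120446384) encodes a small intermembrane-space protein that carries phosphatidic acid between the mitochondrial membranes and restrains apoptosis. It measured 34.8 and 33.0 CPM with DMSO, 26.8 and 29.2 CPM with UCI-1001, and 22.6 and 20.5 CPM with UCI-1014. The 3 groups did not overlap, and UCI-1014 was the lowest. Against DMSO the log2 fold change was -0.28 (SE 0.077, edgeR adjusted p = 0.0264) for UCI-1001 and -0.66 (SE 0.081, edgeR adjusted p = 1.1e-05) for UCI-1014. UCI-1014 lay below UCI-1001 by a log2 difference of -0.38 (SE 0.083, edgeR adjusted p = 0.00281). The UCI-1001 call was lost with DESeq2 (adjusted p = 0.144) without either DMSO library (edgeR adjusted p = 0.198 and 0.0789 without replicates 1 and 2) and without replicate 1 of UCI-1001 (0.158). Over the 14 alternative settings its adjusted p ranged from 0.0102 to 0.306. The difference between the compounds was lost when all 12 libraries were fitted together (edgeR adjusted p = 0.0621). In Saos-2 the same gene went the other way, from 742, 563 and 636 counts in p53-null to 2438, 2240 and 2387 counts in p53-WT. These are 29.6 ± 4.03 and 108 ± 3.18 CPM (SD, n = 3), without overlap, and the fitted rise was 1.87 on the log2 scale (SE 0.12, edgeR adjusted p = 1.5e-07). A protein-coding gene on the opposite strand (ENSG00000111780) overlaps TRIAP1 by 2421 bases and had at most 30 counts in a library. Whether counting used strand is not given in the sources used here, so reads of shared bases cannot be told apart.

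PERP (ENSG00000112378, chr6:138088505-138107419) is a tetraspan membrane protein of desmosomes that takes part in p53-dependent apoptosis. It measured 39.5 and 38.5 CPM with DMSO, 35.9 and 38.2 CPM with UCI-1001, and 39.1 and 38.7 CPM with UCI-1014. The groups overlapped or nearly met, and no call was made (log2 fold change -0.08, 95% interval -0.22 to 0.06, for UCI-1001, and -0.00, -0.15 to 0.14, for UCI-1014). The p53-null libraries were close to these, at 39.1, 36.6 and 36.7 CPM, and p53-WT reached 270, 345 and 360 CPM. That is an 8.68-fold rise (log2 3.12, SE 0.13, edgeR adjusted p = 6.7e-09).

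AEN (ENSG00000181026, chr15:88621337-88632281), a nuclear exonuclease that promotes apoptosis, has its response element letters 24 bases before its start. It measured 44.8 and 41.3 CPM with DMSO and 41.6 and 45.1 CPM with UCI-1001, which overlap. With UCI-1014 it measured 38.6 and 35.3 CPM, below all 4 of those libraries. The log2 fold change for UCI-1014 was -0.22 against DMSO (SE 0.074, edgeR adjusted p = 0.0221) and -0.23 against UCI-1001 (SE 0.073, edgeR adjusted p = 0.0273). Both calls were lost with DESeq2 (adjusted p = 0.105 and 0.109). Without replicate 2 of UCI-1014 the edgeR adjusted p rose to 0.195 and 0.219, and without replicate 1 of DMSO to 0.23 and 0.0506. Without replicate 2 of UCI-1001 the difference between the compounds was not called either (0.221). In Saos-2 AEN rose from 54.2, 53.8 and 53.5 CPM to 129, 117 and 116 CPM. That was the smallest p53-WT response among the 8 members tested there (log2 1.16, SE 0.10, edgeR adjusted p = 1.6e-06).

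RNF144B (ENSG00000137393, chr6:18387350-18468870), a RING-in-between-RING ubiquitin ligase that has BAX among its substrates, had the strongest response to p53-WT among members with over 3 counts in p53-null. It went from 5.21, 5.12 and 4.78 CPM to 142, 169 and 193 CPM (log2 5.06, SE 0.15, edgeR adjusted p = 1.2e-09). In TOV-112D it was too low to pass the filter on low counts. The counts themselves were 1 and 1 with DMSO, 3 and 2 with UCI-1001, and 12 and 6 with UCI-1014, and the UCI-1014 libraries were above the other 4. The summed ratio of UCI-1014 to DMSO was 9.38 (95% counting interval 2.25 to 83.4), and that of UCI-1001 to DMSO was 2.37 (0.387 to 24.8), intervals that cover counting error only. When no filter was applied, edgeR called RNF144B higher with UCI-1014 (log2 3.09, adjusted p = 0.0212) and not with UCI-1001 (log2 1.14, adjusted p = 0.782). It was also called with all 12 libraries in 1 fit (log2 3.03, edgeR adjusted p = 0.0158). With a library left out, RNF144B passed the filter only through replicate 1 of UCI-1014 (12 counts), of the group where it is high. Nothing is therefore read from its calls there. The log2 fold change was 3.11 without either UCI-1001 library and 3.61 without replicate 2 of UCI-1014. Without either DMSO library it was 3.07 and 3.13, and not called. Without replicate 1 of UCI-1014 the gene was not tested. Even with UCI-1014 it reached at most 0.717 CPM, against 4.78 CPM or more in every p53-null library.

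TP53I11 (ENSG00000175274, chr11:44885903-44951306), also known as PIG11, was found as a gene induced by p53 before apoptosis. It had 3, 0 and 0 counts in the p53-null libraries and 400, 366 and 473 in p53-WT, and its 3 counts all lay in the p53-null library that stands apart. The ratio of summed counts was 414 (95% counting interval 141 to 2010). The fitted log2 fold change of 8.52 (SE 0.37, edgeR adjusted p = 7.9e-09) depends on the few counts of p53-null, and ranged from 7.97 to 11.73 over 15 alternative settings, the highest without the libraries that stand apart. In TOV-112D the gene was expressed without any wild-type p53, at 67.2 and 64.6 CPM with DMSO, 59.1 and 60.2 CPM with UCI-1001, and 54.9 and 54.3 CPM with UCI-1014. Those 3 groups did not overlap. The log2 fold change was -0.27 for UCI-1014 (SE 0.055, edgeR adjusted p = 8.7e-04) and -0.14 for UCI-1001 (SE 0.053, edgeR adjusted p = 0.0877), so the latter was not called. The UCI-1014 call was lost when all 12 libraries were fitted together (log2 -0.33, edgeR adjusted p = 0.0991). TSPAN18, whose gene lies on the opposite strand, shares 76 of the 7345 exon bases of TP53I11. TSPAN18 had 0 counts in all p53-null libraries, 3 counts summed over the p53-WT libraries, and 10.7 to 14.2 CPM in TOV-112D. Whether counting used strand is not given in the sources used here, so reads of the shared bases cannot be told apart.

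SPATA18 (ENSG00000163071, chr4:52051304-52097299), a regulator of mitochondrial quality control also called Mieap, had 0 counts in all 6 Saos-2 libraries. A count of 0 allows up to 0.132 to 0.149 CPM in these libraries. In TOV-112D it had 4 and 9 counts with DMSO, 9 and 9 with UCI-1001, and 9 and 1 with UCI-1014. These ranges overlap, and no difference was detectable at this depth.

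PHLDA3 (ENSG00000174307, chr1:201464278-201469237), which competes with AKT for membrane lipids and so restrains growth signalling, was as low. It had 0 counts in 5 of the Saos-2 libraries and 1 count in 1 p53-WT library. In TOV-112D it had 5 and 4 counts with DMSO, 5 and 4 with UCI-1001, and 5 and 2 with UCI-1014. The ratio of UCI-1014 to DMSO was 0.811 (95% counting interval 0.257 to 2.45), so a change was not detectable at this depth.

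PLXNB2 (ENSG00000196576, chr22:50274979-50307646), a plexin and so a cell-surface receptor for semaphorins, was the member of highest CPM in TOV-112D, unadjusted for transcript length. It measured 192 and 190 CPM with DMSO, 186 and 162 CPM with UCI-1001, and 168 and 165 CPM with UCI-1014. UCI-1014 lay below DMSO without overlap (log2 -0.20, SE 0.053, edgeR adjusted p = 0.00684). UCI-1001 was not called (log2 -0.14, SE 0.053, edgeR adjusted p = 0.101), and without its replicate 1 it was (log2 -0.24, edgeR adjusted p = 0.00408). The UCI-1014 call was lost without replicate 1 of DMSO (edgeR adjusted p = 0.0704) and with all 12 libraries fitted together (0.202). In Saos-2 PLXNB2 rose from 58.4, 77.7 and 83.0 CPM to 273, 240 and 251 CPM (log2 1.80, SE 0.14, edgeR adjusted p = 6.1e-07).

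Among the members that act on RNA and ribosomes, ZMAT3 (ENSG00000172667, chr3:178960121-179072215) encodes a zinc finger protein that binds RNA and affects the stability and splicing of transcripts. It is also the member with the full consensus in its first intron. In Saos-2 it rose from 30.9, 33.4 and 30.1 CPM to 215, 370 and 391 CPM, a 10.3-fold change (log2 3.37, SE 0.21, edgeR adjusted p = 1.1e-07). The low p53-WT value is that of the library that stands apart, and without both such libraries the log2 fold change was 3.59. In TOV-112D ZMAT3 measured 24.9 and 24.5 CPM with DMSO, 24.0 and 24.1 CPM with UCI-1001, and 25.7 and 23.7 CPM with UCI-1014. All 6 libraries lay within 23.7 to 25.7 CPM, and the 95% interval of the log2 fold change was -0.20 to 0.12 for UCI-1001 and -0.17 to 0.16 for UCI-1014.

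RPS27L (ENSG00000185088, chr15:63125872-63158021) is a paralogue of the ribosomal protein RPS27 and a regulator of MDM2. It rose from 31.9, 19.0 and 20.7 CPM in p53-null to 312, 236 and 228 CPM in p53-WT (log2 3.44, SE 0.21, edgeR adjusted p = 9.0e-08). The highest value of each line was that of the library that stands apart. RPS27 itself, some of whose reads could be shared with RPS27L, went from 534 to 692 CPM up to 836 to 1178 CPM, a smaller change (log2 0.65, SE 0.15, edgeR adjusted p = 0.00327). LACTB, whose gene overlaps RPS27L on the opposite strand but shares 0 of its 8825 exon bases, had a log2 fold change of 0.79 (edgeR adjusted p = 3.2e-04). In TOV-112D RPS27L measured 15.8 and 19.5 CPM with DMSO, 19.7 and 20.8 CPM with UCI-1001, and 18.6 and 16.3 CPM with UCI-1014. Both UCI-1001 libraries were above both DMSO libraries, but the difference was not called (log2 0.20, 95% interval -0.02 to 0.43, edgeR adjusted p = 0.23).

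**Figure D2:**
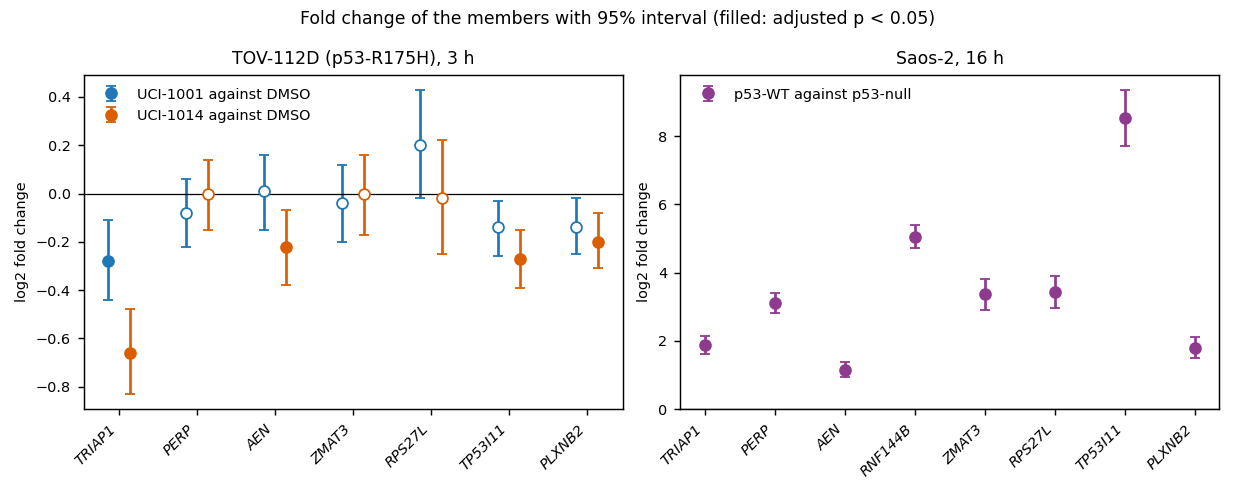
Log2 fold change of each tested member with its 95% interval from edgeR: both compounds against DMSO on the left, p53-WT against p53-null on the right, on separate vertical scales. Filled points passed an adjusted p of 0.05; on the left these all lie below 0 (TRIAP1 for both compounds, and AEN, TP53I11 and PLXNB2 for UCI-1014), and on the right all 8 lie above 1.

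Counted over the 10 members, edgeR called 8 higher with p53-WT and 0 lower, beside 33.5% of the 14272 genes tested that were higher and 33.0% that were lower, and the other 2 (SPATA18 and PHLDA3) could not be tested. At an unadjusted p under 0.05 and by DESeq2, 0 were lower too. TP53I11 passed the filter on low counts only through p53-WT, so its place among the 8 was fixed by the filter. The other 7 had at least 108 counts in every p53-null library, and all 7 were called higher. Without the library numbered 1 of both lines the log2 fold change was 1.12 for AEN, 1.62 for PLXNB2, 1.99 for TRIAP1, 3.27 for PERP, 3.55 for RPS27L and 5.20 for RNF144B, and again 8 were called higher. With UCI-1001, 0 of the 7 tested were higher and 1 was lower, beside 9.39% higher and 6.36% lower of 14174 genes. At an unadjusted p under 0.05 these became 0 and 3, and by DESeq2 0 and 0. With UCI-1014, 0 were higher and 4 were lower, beside 23.7% and 23.4%, with the same 2 counts at an unadjusted p under 0.05, and with 3 lower by DESeq2. Over the members the median was -0.08 (log2) for UCI-1001 and -0.20 for UCI-1014, where all genes had medians of 0.00 and -0.02. Between the compounds, 2 members (TRIAP1 and AEN) were lower with UCI-1014 and 0 higher, beside 13.9% lower and 17.2% higher, and DESeq2 called 1 lower and 0 higher. Both compounds share the DMSO libraries. These counts leave out SPATA18 and PHLDA3 in both lines and RNF144B in TOV-112D, which did not pass the filter on low counts. Without the filter, RNF144B was called higher with UCI-1014 (log2 3.09, edgeR adjusted p = 0.0212) and not with UCI-1001 (edgeR adjusted p = 0.782).

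**Figure D3:**
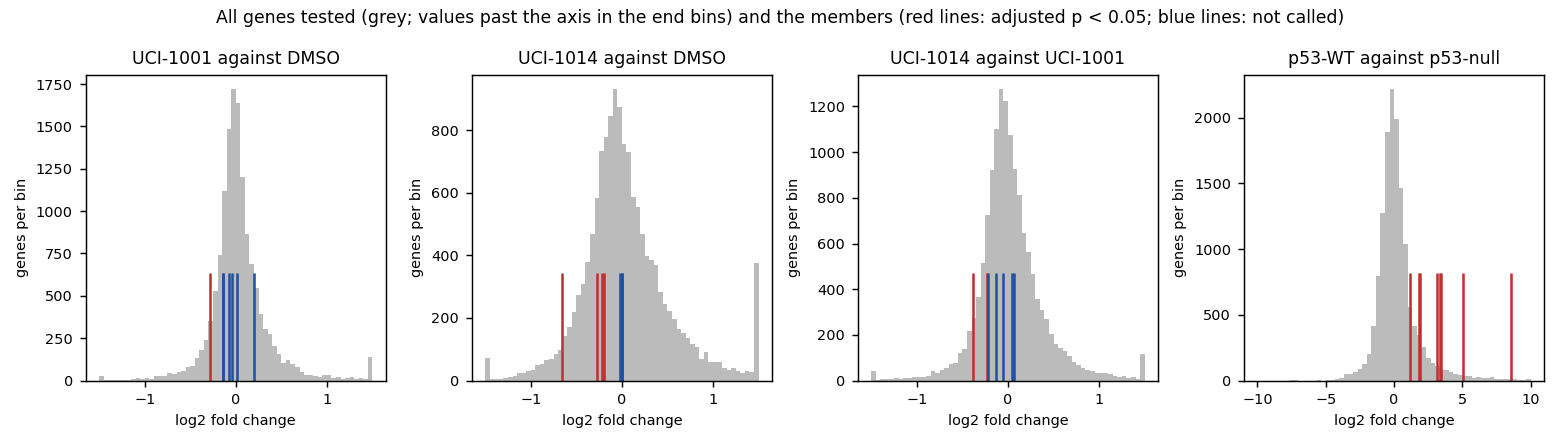
Number of genes by log2 fold change in the 4 comparisons (grey bars, all genes tested, with values past the axis collected in the end bins), with a vertical line for each member: red where the adjusted p was under 0.05 and blue otherwise. In the 3 TOV-112D panels the members lie within the bulk of all genes, and in the p53-WT panel they lie to the right of it.

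Whether a member answered a compound less than p53-WT was tested as a difference of differences over all 12 libraries. With UCI-1001, 7 of 8 members were lower than with p53-WT, beside 25.1% of the 15790 genes tested. With UCI-1014 it was again 7 of 8, beside 27.1%. The member not called was RNF144B, at a log2 difference of -3.95 (SE 1.57, edgeR adjusted p = 0.0513) for UCI-1001 and -2.04 (SE 1.38, edgeR adjusted p = 0.237) for UCI-1014. The first of these was called in 9 of 18 alternative settings, DESeq2 among them (adjusted p = 0.00424), and the second in 0 of 18. SPATA18 and PHLDA3 gave no value. The difference also holds the change of cell line, of exposure time (3 h against 16 h) and of the way p53 was supplied, which cannot be told apart here.

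The lines also differed before any p53 was restored. Between p53-null Saos-2 and DMSO-treated TOV-112D cells, 3 members were higher in p53-null (AEN, RPS27L and RNF144B) and 3 lower (PLXNB2, TP53I11 and SPATA18), beside 37.2% higher and 37.4% lower of all genes. RNF144B, TP53I11 and SPATA18 had at most 3 counts over all libraries of the lower group and passed the filter on low counts only through groups where they are high, so their directions were fixed by the filter and nothing is read from the total counts of members. The calls of AEN, RPS27L and PLXNB2 do not have this limit. RNF144B had 2 counts over the 2 DMSO libraries and 330 counts over the 3 p53-null libraries. SPATA18 had 13 counts over the 2 DMSO libraries and 0 in p53-null, and it was called in 9 of 18 alternative settings. In 7 of the others it did not pass the filter, and it was not called without replicate 2 of DMSO (edgeR adjusted p = 0.0562) or with the replicate block (0.0742). TP53I11 was lower, with 2496 counts over the 2 DMSO libraries and 3 counts over the 3 p53-null libraries. ZMAT3, TRIAP1 and PERP did not pass the threshold (edgeR adjusted p = 0.0538, 0.448 and 0.727). ZMAT3 was called higher in 6 of 18 alternative settings, among them DESeq2 (adjusted p = 0.03), no filter (0.00158), without replicate 1 of p53-WT (2.6e-05) or replicate 3 of p53-WT (0.0344), and without the library numbered 1 of both Saos-2 lines (log2 0.55, 2.5e-06). TRIAP1 was called lower without replicate 1 of p53-null (edgeR adjusted p = 0.0434). The RPS27L call (log2 0.54, edgeR adjusted p = 0.0271) was lost without replicate 1 of p53-null (0.138) and without replicate 1 of DMSO (0.207).

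Levels can be compared between genes only per transcript length, as TPM. With DMSO the order was PLXNB2 (64.1 TPM), TRIAP1 (54.8), RPS27L (52.8), TP53I11 (43.6), AEN (23.9), PERP (14.7) and ZMAT3 (5.8), with PHLDA3, SPATA18 and RNF144B under 1 TPM. TRIAP1 (52.8 to 56.7 TPM) and RPS27L (46.0 to 59.6 TPM) overlapped there. In p53-null RPS27L (54.8 TPM), TRIAP1 (40.8) and AEN (26.7) led, and TP53I11 was at 0.0235 TPM. In p53-WT RPS27L stood first at 483 TPM (453 to 508 in single libraries), above TRIAP1 (129), PERP (95.1), PLXNB2 (55.5), AEN (51.0), ZMAT3 (49.1), RNF144B (41.5) and TP53I11 (9.28). For PLXNB2 only 82.6% to 87.6% of the gene's counts in Saos-2 lay on transcripts found in GENCODE 44, so its TPM is too low there. TP53I11 was higher in all 3 TOV-112D groups (33.1 TPM or more) than in p53-WT (10.2 TPM or less), without overlap. ZMAT3 levels of the DMSO, UCI-1001, UCI-1014 and p53-null groups overlapped with their neighbours in the order, as did RPS27L levels of those 4 groups.

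**Figure D4:**
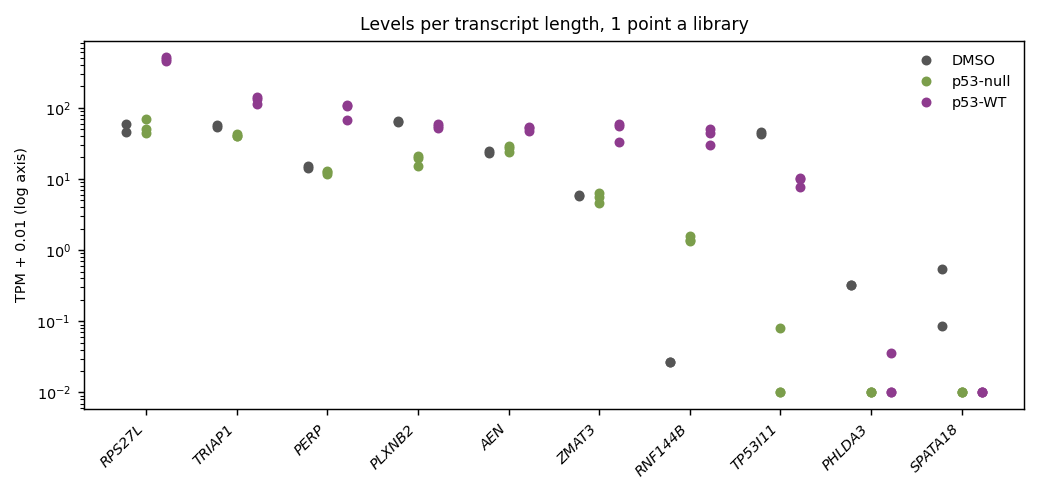
TPM + 0.01 of each member on a log axis in the DMSO, p53-null and p53-WT groups, 1 point a library, with members ordered by their mean in p53-WT. RPS27L is highest in p53-WT (453 to 508 TPM), TP53I11 is higher with DMSO than in p53-WT, and RNF144B is lowest with DMSO.

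The estimated counts also show which annotated transcript carries each member, as shares that the quantification infers. PERP has a single transcript. The canonical transcript carried a mean of 94.4% to 97.9% of AEN in the 5 groups, 93.1% to 97.6% of TRIAP1, and 82.9% to 94.6% of ZMAT3. In RPS27L the counts were spread: a 528-base coding transcript (ENST00000411926) held 42.9% to 43.1% with DMSO and 27.2% to 29.1% in p53-WT. A 970-base one (ENST00000439025) held a mean of 17.5% and 37.9%, and the canonical 6434-base one held 25.8% to 30.1% and 14.0% to 17.5%. The share of the 970-base transcript was 39.8% in p53-null, so it differed more between the lines than between p53-null and p53-WT. The 528-base and canonical transcripts held a mean of 36.1% and 18.5% in p53-null, between their shares with DMSO and in p53-WT. A 923-base coding one (ENST00000455271) held 2.35% and 3.06% with DMSO, at most 2.22% in p53-null and 8.48% to 10.9% in p53-WT. With an offset for transcript length the p53-WT log2 fold change of RPS27L was 3.35. TP53I11 sat mainly on a non-canonical transcript of 3381 bases (ENST00000395648), with 56.2% with DMSO and 71.8% in p53-WT. PLXNB2 was split between 2 coding transcripts of 6335 and 6383 bases, whose shares ranged from 39.2% to 70.4% and from 25.3% to 52.9% among single libraries.

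**Figure D5:**
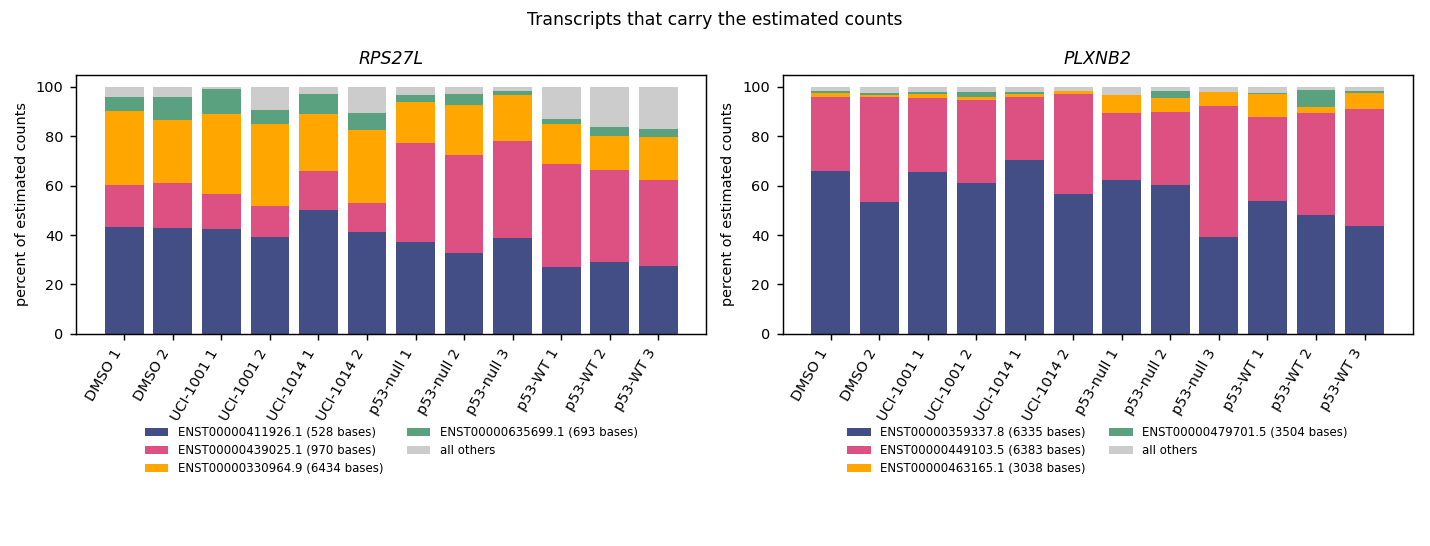
Percent of the estimated counts of RPS27L and PLXNB2 on each annotated transcript in each library, as stacked bars that sum to 100%, with the 4 transcripts of the highest mean share in colour and all others in grey. The 970-base RPS27L transcript takes a larger share in Saos-2 than in TOV-112D, and the split of PLXNB2 between its 2 long transcripts varies between libraries of 1 group.

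Other genes of the p53 pathway were read from a list of further targets. Of 34 further p53 targets, arrest and feedback genes among them, 33 were tested in Saos-2 and all 33 were higher with p53-WT, beside 33.5% of all genes. Of these, 2 had under 10 counts in every p53-null library. Of the 30 tested in TOV-112D, 8 were higher and 0 lower with UCI-1001 (median log2 fold change 0.05), beside 9.39% and 6.36% of all genes. With UCI-1014, 16 were higher and 2 lower (median 0.25), beside 23.7% and 23.4%. Among the largest changes with both compounds were SESN2, a stress-induced regulator of mTORC1, and CDKN1A, the cell cycle inhibitor p21. CDKN1A had a log2 fold change of 1.65 (SE 0.10) with UCI-1001 and 3.54 (SE 0.08) with UCI-1014. SESN2 had 2.01 (SE 0.12) and 4.31 (SE 0.11). With p53-WT the 3 largest were GDF15, a secreted stress cytokine, BTG2, an antiproliferative factor, and CDKN1A, at 8.09, 7.08 and 7.01. The difference between this list and the members was not tested.

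The genes whose pattern over the 12 libraries was most like the mean of the 7 members tested in both lines were NSG1, FECH, SESN1, GLDC and CYBRD1, with a Pearson r of 0.9980 to 0.9989 among 11782 genes compared. The values were log2(CPM + 0.5) centred within each line, and the p53-WT libraries stand far from the others, so r mostly follows that step. Because the genes were picked by this pattern, their changes are a description with no test. The log2 fold change with p53-WT ran from 1.98 (GLDC) to 8.76 (NSG1), that with UCI-1014 from -0.46 to -0.11, and that with UCI-1001 from -0.15 to -0.06.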

How the data were processed

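The authors quantified RNA-seq reads with kallisto 0.48.0 against GRCh38, summed the estimated counts of each Ensembl gene and deposited them as whole-number counts, not normalized. They also deposited, for each library, the estimated counts, TPM and effective length of 187626 transcripts, of which 165858 were found in GENCODE 44. Strandedness is not given in the sources used here. The effective lengths deposited by the authors (other unit, bases) entered only an offset that was tried as an alternative.

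Counts of 40295 genes were summed by symbol and tested with edgeR 4.0.16 (R 4.3.3; TMM, filterByExpr defaults, glmQLFit, glmQLFTest, Benjamini-Hochberg) in 1 fit per cell line, or over all 12 libraries for contrasts across lines. A gene was called at an adjusted p under 0.05. The common biological coefficient of variation came to 3.59% for the TOV-112D fit and to 12.3% for Saos-2. Script tests used simulated data. Alternatives were DESeq2 1.42.0, upper-quartile factors, no filter, a replicate block, separate identifiers, all libraries together, a length offset and leaving out libraries. SEs were taken from the log2 fold change and its F statistic. Ratios of low counts have exact 95% counting intervals. The genes named besides the members were RPS27, in each comparison the 3 largest called changes in a list of 34 other targets, and the 5 genes most like the members. LACTB, TSPAN18, ENSG00000111780 and the marker genes were named beside the results they touch. Some genes that this rule takes in are not reported here. The members and lists were chosen with earlier results of these data known. Python 3.11.15 was used for the rest.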

Additional observations from a re-analysis of the deposited data

Results flagged for a closer look

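For 7 members the change with a compound was lower than the change with p53-WT, by a test of the difference itself in edgeR over all 12 libraries, as log2 fold change with the compound minus that with p53-WT. With UCI-1001 the difference was -3.45 for ZMAT3, -1.19 for AEN, -2.18 for TRIAP1 and -3.23 for PERP. It was -8.70 for TP53I11, -3.28 for RPS27L and -1.98 for PLXNB2. With UCI-1014 it was -3.44 for ZMAT3, -1.45 for AEN, -2.60 for TRIAP1 and -3.19 for PERP. It was -8.86 for TP53I11, -3.52 for RPS27L and -2.07 for PLXNB2. The edgeR adjusted p was at most 2.1e-06 (AEN with UCI-1001), and each difference was called in all 18 alternative settings. The sizes for TP53I11 rest on 3 counts in p53-null. Cell line, exposure time and the source of p53 change together in these contrasts and cannot be told apart.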

How the results depend on the processing

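The rise with p53-WT of each of 8 members was called in every setting that tested it, and 7 were called with the length offset and on its genes, which leave out PLXNB2. Of the 8, TP53I11 passed the filter on low counts only through p53-WT. The fall of TRIAP1 with UCI-1014 was called in all 14 settings. Genes called with UCI-1001 (2233) became 1285 by DESeq2, 309 with all 12 libraries in 1 fit, 670 with the length offset and 952 to 2540 when 1 library was left out. With UCI-1014 (6675) they became 3418 with all 12 libraries and 3834 with the offset. Between the compounds (4409) they became 2891 by DESeq2, 937 with all 12 libraries and 1906 with the offset. On the genes of the offset but without it, they were 1842 with UCI-1001, 5435 with UCI-1014 and 3601 between the compounds. Members lower on those genes were 1, 3 and 2. Members lower with UCI-1001 (1) became 0 by DESeq2, with all 12 libraries or with the offset, 2 without the filter, and 0 to 1 with a library left out. With UCI-1014, members lower (4) became 1 with all 12 libraries and 2 with the offset, and fewer were called lower without some single libraries. Members higher (0) became 1 (RNF144B) without the filter or with all 12 libraries. With a library left out, RNF144B was tested only where replicate 1 of UCI-1014 let it pass the filter, so nothing is read from its calls there. Between the compounds, members lower (2) became 1 by DESeq2 or with the offset, 0 with all 12 libraries, and 1 to 2 with a library left out. Between p53-null and DMSO, members higher (3) became 2 to 4 and members lower (3) became 2 to 3 with a library left out. The causes were not tested.

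In TOV-112D replicate numbers did not pair the libraries, as the correlation of same-numbered deviations was 0.0359, -0.0221 and -0.154. In Saos-2 it was 0.171, 0.175 and 0.061, and that of differently numbered libraries of the 2 lines ran from -0.262 to 0.206. These values do not settle whether the numbers pair the Saos-2 libraries. With the replicate block 1774 genes were called for UCI-1001, 6306 for UCI-1014, 3880 between the compounds and 9814 for p53-WT. Members lower with UCI-1001 became 0 under the block, as TRIAP1 reached an edgeR adjusted p of 0.0504. With the UCI-1014 numbers crossed, a pairing added after seeing the data, 4977 genes were called between the compounds.

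The only log2 fold changes that turned sign were uncalled values near 0. AEN with UCI-1001 became -0.00 with upper-quartile factors, -0.02 with all 12 libraries and -0.06 to 0.07 with a library left out. PERP with UCI-1014 became 0.01 by DESeq2 and on the genes of the offset, and -0.03 to 0.02 with a library left out, and PERP in p53-null against DMSO became -0.06 with the block. ZMAT3 with UCI-1014 became 0.01 by DESeq2 and on the genes of the offset, 0.02 with the offset, 0.00 by identifier and -0.05 to 0.06 with a library left out. ZMAT3 between the compounds became -0.02 with upper-quartile factors and -0.01 to 0.11 with a library left out. RPS27L with UCI-1014 became 0.09 with the offset and -0.16 to 0.14 with a library left out, and PLXNB2 between the compounds -0.14 to 0.05. With 2 libraries a group, a lone library is assumed to vary like the others, and at this depth RNF144B in TOV-112D, SPATA18 and PHLDA3 have too few counts for small changes to be detectable.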
